A study of Mus musculus with 77 samples.

Results

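Mouse chromosome 11 was followed bin by bin through S phase in single blastomeres of cloned embryos. It was taken as all bins of the deposited tables that carry its name, 1523 of the 32973 bins of 80 kb in the mm9 build. Of these, 1486 had a call in at least 1 cell, and they spanned chr11:2960001-121840000.

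The assay was scRepli-seq, in which the DNA of a single cell is amplified and sequenced and every bin is scored as already copied or not yet copied from its relative copy number. All embryos were clones: a body cell's nucleus had been put into an egg stripped of its own, a procedure called somatic cell nuclear transfer (SCNT). The embryos were of the BDF1 strain and were grown in vitro in CZB medium, and single blastomeres were taken out by micromanipulation. Both groups therefore share strain, cloning and culture and differ in stage: the 4-cell group has 28 cells from 14 embryos, and the 8-cell group 49 cells from 12. The type of donor cell is not given in the labels, and no fertilised embryos were analysed here.

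Each cell has a Repliscore, the replicated percentage of its autosomal bins with a call, which serves as its position within S phase. Cells with a Repliscore of 30 to 70 are called mid-S here: 18 cells of 9 4-cell embryos and 28 cells of 10 8-cell embryos. Their median Repliscore was 57.3 in the 4-cell set and 49.5 in the 8-cell set, so the 4-cell set was on average further through S phase. Means and SDs are over embryos, since blastomeres of an embryo are not independent. Of the 4-cell mid-S set, 10 cells of 5 embryos belonged to the earlier of the dated batches, which held no 8-cell cells.

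A mammalian chromosome is copied in domains of a fraction of a megabase to several megabases, each of which starts within a characteristic window of S phase. Domains that are rich in genes and active chromatin are in general copied first, and gene-poor domains packed at the nuclear periphery last. Chromosome 11 is known as a gene-dense chromosome of the mouse. It carries housekeeping and cell-cycle genes, the Hoxb and keratin clusters, and long genes and gene deserts in its proximal part and around Sox9.

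To show what the ends of this range look like in sequence, the 250 bases before the transcription start are given for 2 genes in domains copied early and 2 in domains copied late. Capitals mark CpG dinucleotides, the letters CG, searched on both strands since CG is its own reverse complement. The sequences are RefSeq's, from the GRCm38.p6 build, on the minus strand and without coordinates, because the replication calls are on mm9. Polr2a encodes the largest subunit of RNA polymerase II and Brca1 a DNA repair factor. Tenm2 encodes a synaptic adhesion protein and Gabra6 a GABA-A receptor subunit.
Polr2a: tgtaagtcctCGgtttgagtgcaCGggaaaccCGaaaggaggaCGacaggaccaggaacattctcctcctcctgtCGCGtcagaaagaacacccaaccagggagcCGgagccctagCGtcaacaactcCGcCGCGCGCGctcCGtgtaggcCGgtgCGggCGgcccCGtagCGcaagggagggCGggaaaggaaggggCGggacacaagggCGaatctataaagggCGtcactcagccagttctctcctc
Brca1: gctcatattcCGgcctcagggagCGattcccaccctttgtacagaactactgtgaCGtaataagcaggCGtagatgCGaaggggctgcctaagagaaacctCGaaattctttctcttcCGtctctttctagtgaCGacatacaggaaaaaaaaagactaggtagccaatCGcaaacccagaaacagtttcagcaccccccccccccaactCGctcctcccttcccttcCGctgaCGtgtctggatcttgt
Tenm2: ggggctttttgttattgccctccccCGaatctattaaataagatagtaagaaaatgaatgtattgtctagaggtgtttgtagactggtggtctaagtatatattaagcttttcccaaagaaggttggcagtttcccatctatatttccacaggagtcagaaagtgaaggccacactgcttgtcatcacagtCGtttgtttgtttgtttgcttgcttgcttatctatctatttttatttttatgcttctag
Gabra6: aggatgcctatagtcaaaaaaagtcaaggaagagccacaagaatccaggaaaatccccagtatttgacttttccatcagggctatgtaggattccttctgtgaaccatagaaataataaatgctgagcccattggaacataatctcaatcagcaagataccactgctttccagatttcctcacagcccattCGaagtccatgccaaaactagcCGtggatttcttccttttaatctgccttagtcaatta

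The Polr2a stretch held 23 CpGs with 62.8% G+C and the Brca1 stretch 12 CpGs with 51.2% G+C. In the Tenm2 stretch there were 2 CpGs with 37.2% G+C, and in the Gabra6 stretch 2 CpGs with 40.8% G+C. These 4 genes were chosen with their replication known and do not stand for all genes of their class. Over the listed loci with a promoter in the table, the median was 9 CpGs for 35 loci in windows at or above 80% replicated at the 8-cell stage. The median was 5 CpGs for the 4 loci in windows at or below 20% and 6 for the 27 loci in between. The ranges overlapped, from 1 to 43 CpGs over the 35 loci and from 2 to 13 over the 4 loci. Over 1271 promoters of protein-coding genes of the chromosome the median was 13. At least 1 CpG was present in 96% of those 1271 stretches.

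Several cells stood apart on this chromosome, and the results that rest on them are given with and without them. The 2 mid-S cells of 4-cell embryo 6 had Repliscores of 56.5 and 56.6, but chromosome 11 was 99.2% replicated in the first and 0.07% in the second. Of the 1456 bins called in both, 99.1% were in opposite states, against a median of 18.5% over the 50 pairs of mid-S cells from the same embryo. In 8-cell embryo 11, the cell at Repliscore 49.3 had 0.21% of chromosome 11 replicated, while its 3 mid-S sister cells had between 59.5% and 63.1%. That cell had calls in 957 bins, and 42.7% of its uncalled bins lay in the late segments defined below, which make up 15.4% of the chromosome. The opposite held in 8-cell embryo 12, where the cell at Repliscore 52.6 was 93.4% replicated and 83% of its uncalled bins lay in early segments, which make up 47.9%. Over all 77 cells, 12 had at least 98% of chromosome 11 in 1 state. A total of 3 of these were mid-S cells, 2 of 4-cell embryos and 1 of an 8-cell embryo. The number of chromosome 11 bins called per cell was 716 at the lowest and 1486 at the median. The tables give no read numbers, so the depth behind a call is unknown.

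Chromosome 11 was ahead of the genome in most cells. In mid-S cells, its replicated percentage was above that of the same cell's autosomes by 10.0 ± 10.2 points (SD, n = 9 embryos) at the 4-cell stage. The corresponding lead was 11.3 ± 7.4 points (n = 10) at the 8-cell stage. It was the highest mean of the 19 autosomes at both stages. Per embryo, the lead had a lowest value of -6.93, a median of 13.9 and a highest value of 20.5 points at the 4-cell stage, and -4.87, 11.9 and 22.9 points at the 8-cell stage. Embryos 3 and 6 of the 4-cell stage and embryo 11 of the 8-cell stage lay below 0, and the 2 stages overlapped almost completely. The difference between stages was 1.24 points (p = 0.766, two-sided exact permutation of embryo labels). Adjusted over the 6 such tests of single values, it stayed at p = 0.766. Without the cells whose chromosome 11 was in 1 state, the leads were 12.1 ± 8.5 points (n = 8) and 12.7 ± 4.9 points (n = 10). The sign of the stage difference depended on the batch: it was 7.78 points against the 4-cell embryos of the later batch (exact permutation p = 0.178) and -3.99 points against those of the earlier batch (exact permutation p = 0.284).

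**Figure D1:**
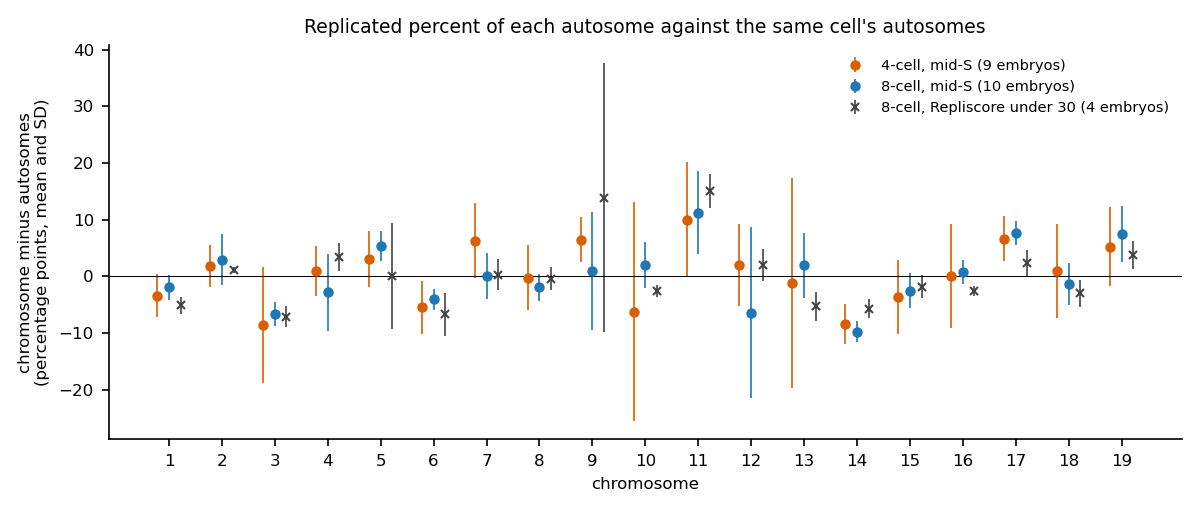
Replicated percentage of each autosome minus the autosomal percentage of that cell (vertical axis, percentage points) for chromosomes 1 to 19 (horizontal axis). Points are means over embryos and bars are SDs for 9 4-cell embryos in mid-S, 10 8-cell embryos in mid-S and 4 8-cell embryos with cells under a Repliscore of 30. Chromosome 11 has the highest mean in each of the 3 sets, at 10.0, 11.3 and 15.1 points.

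In 8-cell cells the lead was largest in the first part of S phase and near 0 at its end. The 5 8-cell cells under a Repliscore of 20 had a lead with a median of 15.4 points, and the 8 cells from 20 to 40 had 16.8 points. The median was 11.3 points over the 16 cells from 40 to 60, 3.07 points over the 10 cells from 60 to 80, and 0.14 points over the 10 cells from 80 on. A chromosome cannot be more than fully replicated, which caps the lead at high Repliscores. The part of this cap in the fall of the medians was not tested. The single 4-cell cell under 20, itself in 1 state, lay at -12.2 points. The 4-cell medians were 16.0 points from 20 to 40, 14.9 points from 40 to 60, 10.9 points from 60 to 80 and 7.51 points over the 7 cells from 80 on. Without the cells in 1 state, only 1 4-cell cell was left from 80 on, at 8.58 points. The 8-cell medians were then 11.9 points from 40 to 60 and -1.52 points over the 8 cells from 80 on.

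The chromosome was divided by the mean of both stages' mid-S percentages. Runs of at least 5 called bins at or above 80% were called early segments and runs at or below 20% late segments. By this rule 31 early segments held 712 bins, 47.9% of those called, and 18 late segments held 229 bins, 15.4%. The mid-S values themselves chose these segments, and they are therefore a description. Single bins past the thresholds made up 49.1% (early) and 18% (late) of chromosome 11, against 30.9% and 26.5% of the bins of the other autosomes. Chromosome 11 had the highest early share of the 19 autosomes and the second lowest late share.

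**Figure D2:**
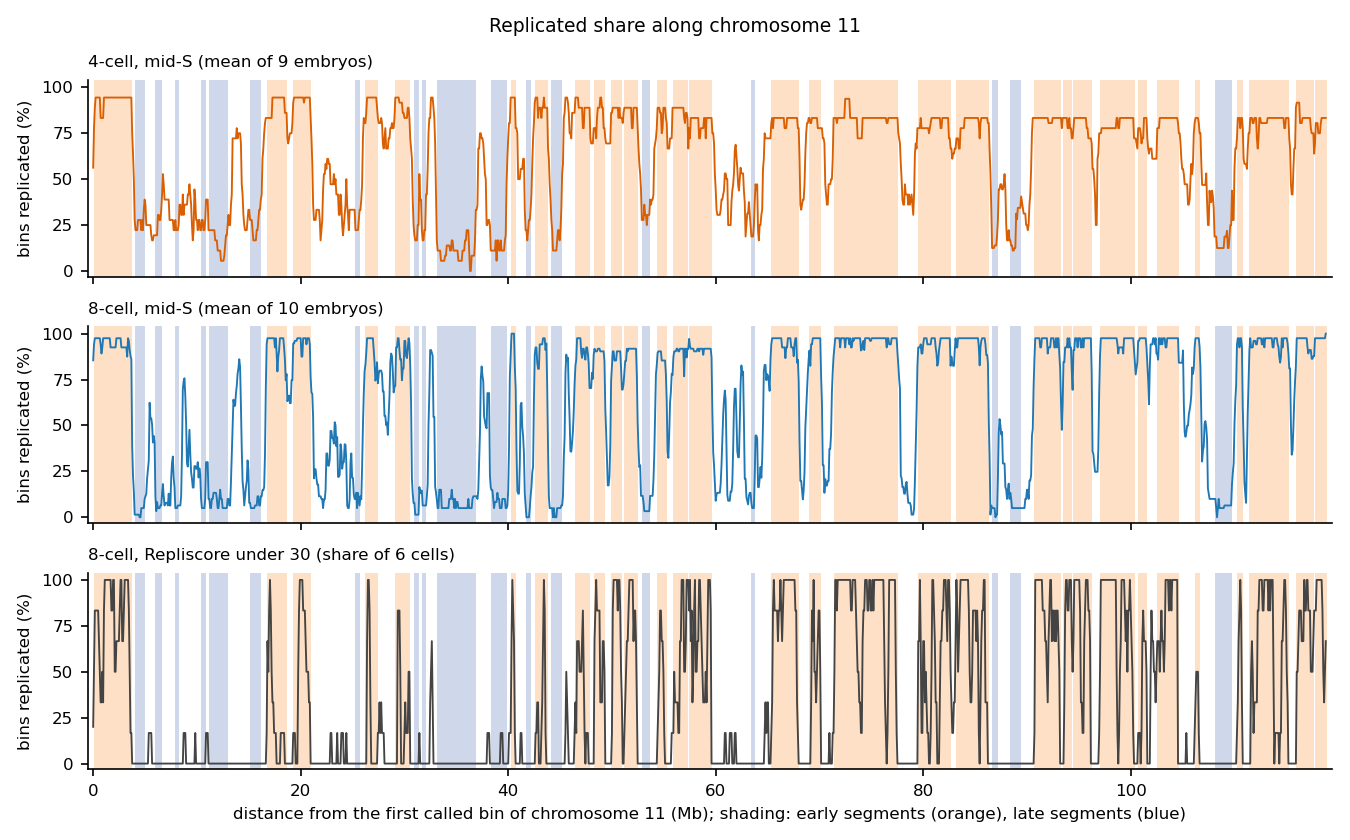
Percentage of replicated calls per 80-kb bin (vertical axis) along chromosome 11, as distance from the first called bin in Mb (horizontal axis). Lines are the mean over 9 4-cell embryos in mid-S, the mean over 10 8-cell embryos in mid-S, and the share of 6 8-cell cells under a Repliscore of 30. Orange shading marks the 31 early and blue shading the 18 late segments. The late segments lie mainly on the left, and in the lowest panel replicated bins are almost all within orange.

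The early segments crowded in the distal part of the chromosome. From chr11:1-20000000, 23.9% of the bins were early and 37.1% late. In the section chr11:60000001-80000000 the shares were 60.4% early and 5.6% late, and in chr11:100000001-120000000 they were 62.8% and 8.8%. Of the 18 late segments, 14 ended before 61 Mb.

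The longest early segment, chr11:74320001-80560000 (78 bins), holds the 1-Mb window of Nf1, the gene of the Ras regulator neurofibromin. In mid-S it was replicated to 82.4 ± 34.9% (n = 9) in 4-cell and 96.4 ± 7.6% (n = 10) in 8-cell embryos. Next came chr11:114400001-118240000 (48 bins), with the thymidine kinase gene Tk1 and the survivin gene Birc5, at 81.5 ± 34.5% and 95.2 ± 7.7%. The most proximal segment, chr11:3040001-6720000 (46 bins), holds Lif, a cytokine gene, and Xbp1, a regulator of the unfolded protein response, and was at 93.2 ± 16.5% and 94.7 ± 9.1%. The fourth, chr11:100000001-103360000 (42 bins), carries Stat3, Stat5a and Stat5b, which encode signal transducers, and Brca1, and was at 82.7 ± 35% and 96 ± 7.9%.

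The other 6 of the 10 longest were alike in level. The segment chr11:82480001-85600000, with the chemokine gene Ccl5, was at 80.3 ± 34.1% in 4-cell and 94.8 ± 7.9% in 8-cell embryos. That of Polr2a and the p53 gene Trp53, chr11:68320001-70960000, was at 82.4 ± 34.9% and 94.6 ± 8.4%. The collagen gene Col1a1 lies in chr11:93680001-96240000, at 82.9 ± 35.1% and 94.8 ± 8.9%. Values of 80.7 ± 34.6% and 97.0 ± 7.8% were found for chr11:86080001-88400000, and of 80.8 ± 34% and 91.5 ± 19.2% for chr11:60400001-62640000. The segment around the angiotensin-converting enzyme gene Ace, chr11:105520001-107600000, was at 82.6 ± 35% and 96.1 ± 7.9%.

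The wide 4-cell SDs came from 2 embryos. In the segment chr11:74320001-80560000 the 4-cell embryos had a lowest value of 0%, a median of 100% and a highest of 100%, while the 8-cell embryos ran from 75% through a median of 98.4% to 100%. Without 4-cell embryos 3 and 6, the 4-cell mean there was 98.8 ± 2.9% (n = 7). Over all early segments the 4-cell mean moved in the same way, from 88.1 ± 18.8% (n = 9) to 97.4 ± 2.6% (n = 7), beside 94 ± 7.7% (n = 10) in 8-cell embryos. In 4-cell embryo 3, the cell at Repliscore 59.7 had its early bins proximal to 50 Mb 98.1% replicated and those distal to 66 Mb 1.1% replicated. It held an unbroken unreplicated run over chr11:52000001-118880000. The other mid-S cell of that embryo had 716 bins called and none in the distal early segments.

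A second regional gap recurred in 8-cell embryo 1. In 5 of its 8 cells, at Repliscores of 32.3, 33.2, 54.1, 59.7 and 72.8, between 0% and 2.8% of the early-segment bins from 50 to 66 Mb were replicated. A sixth cell, at 46.8, had 54.5% of them replicated, and the remaining 2 cells, at 42 and 69.4, had 100%. Across these 8 cells, the early bins proximal to 50 Mb were at least 87.7% replicated and those distal to 66 Mb at least 96.9%. The longest unreplicated run was chr11:50080001-67280000 in the cell at 54.1, chr11:50000001-66240000 in the cell at 59.7 and chr11:50080001-66240000 in the cell at 72.8. In the cells at 32.3 and 33.2 it ended at 60400000 and started at 50080001 and 50000001. The other 8-cell mid-S cells, leaving out the one in 1 state, had at least 88.4% of these bins replicated. Hence the mid-S mean of the segment chr11:52880001-53920000, with the Th2 cytokine genes Il4, Il5 and Il13, was 86.6 ± 21.9% with embryo 1 and 92.9 ± 9.3% (n = 9) without it.

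The longest late segment was chr11:36080001-39840000 (47 bins), which begins in the 1-Mb window of Tenm2. It was replicated to 10.8 ± 15.3% (n = 9) in 4-cell and 7.4 ± 17.7% (n = 10) in 8-cell embryos in mid-S. Per embryo, the 4-cell values had a lowest of 0%, a median of 5.3% and a highest of 46.8%, and the 8-cell values 0%, 1.1% and 57.4%. In the gene order of RefSeq, no protein-coding gene lies between Tenm2 and Mat2b, which encodes a methionine adenosyltransferase subunit. The segment chr11:14080001-16000000 (24 bins), between the actin regulator gene Cobl and the receptor gene Egfr, was at 15.9 ± 21.6% and 8.7 ± 16.9%, and 3 protein-coding genes are listed between them.

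The third, chr11:111040001-112720000 (21 bins), lies between the window of the potassium channel gene Kcnj2 and the end of that of Sox9, the transcription factor gene of cartilage and testis. It was at 16.2 ± 23% (8 embryos with calls) and 6.1 ± 14.9%, and RefSeq lists 1 protein-coding gene between Kcnj2 and Sox9. The segment chr11:91280001-92400000 (14 bins), which holds the kinesin gene Kif2b, was at 20.04 ± 25.2% and 6.3 ± 15.7%.

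The next late segments were about 1 Mb long. The window of Meis1, a homeobox partner of Hox proteins, holds most of chr11:18080001-19120000, at 23.9 ± 27.8% in 4-cell and 6.8 ± 13.6% in 8-cell embryos. The segment chr11:47120001-48160000, which reaches into the windows of the muscle sarcoglycan gene Sgcd, was at 18.4 ± 29.1% and 3.6 ± 8.5%. The segment chr11:6960001-7920000, with the growth factor binding protein gene Igfbp3, was at 25.9 ± 33.3% and 2.4 ± 5.5%, and chr11:55840001-56640000 was at 29.7 ± 32% and 5.5 ± 13%.

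A further 9 late segments had 5 to 8 bins. Ebf1, a B-cell transcription factor gene, shares its window with part of chr11:44640001-45120000, at 23.1 ± 33.3% in 4-cell and 2.1 ± 3.8% in 8-cell embryos. The segment chr11:89600001-90160000, which begins in the window of the BMP antagonist gene Nog, was at 13.5 ± 21.3% and 3.3 ± 9.0%. That window also holds the end of the early segment chr11:88480001-89280000, at 82.8 ± 35.1% and 93.4 ± 11.7%. Nog was not placed within its window, so it is not assigned to either segment. Values of 25 ± 34.9% and 9.7 ± 14.3% were found at chr11:28240001-28720000, where the coiled-coil gene Ccdc85a lies. Those of chr11:66320001-66720000, in the windows of the muscle myosin genes, were 21.2 ± 36% (8 embryos with calls) and 7.1 ± 15.7%. The other 5 were chr11:8960001-9600000, chr11:10800001-11280000, chr11:13360001-13840000, chr11:33840001-34400000 and chr11:34640001-35040000, with 4-cell means of 26%, 23.6%, 25%, 20.6% and 20% and 8-cell means of 6.3%, 7.4%, 6.7%, 3.3% and 8.0%. The genes Igfbp3, Kif2b, Ccdc85a, Cobl and Mat2b were chosen after the values were seen.

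All 18 late segments had a lower mean in 8-cell than in 4-cell mid-S embryos, and 16 of 18 did without the cells in 1 state. Of the 31 early segments, 2 were lower at the 8-cell stage, and 11 were without those cells. The lower level was not particular to late segments, since the bins in neither class were at 54.2 ± 15.2% in 4-cell and 40.7 ± 15.2% in 8-cell embryos. Over all late segments the level was 18.5 ± 19.3% (n = 9) against 6.4 ± 12.8% (n = 10), with medians of 9.2% and 1.3%. The embryos overlapped, from 0% to 49.3% and from 0.55% to 42.1%. Without 4-cell embryos 3 and 6 the 4-cell level was 12.4 ± 16.8% (n = 7). Without the cells in 1 state it was 14.9 ± 17.1% (n = 8), beside 6.4 ± 12.7% (n = 10) at the 8-cell stage. The Repliscores also differed between the sets. Within the band of 30 to 50 the late segments were at 2.6% in 4-cell and 1.0% in 8-cell embryos, and within 50 to 70 at 21% and 10.7%. The batches differed as well: the 4-cell embryos of the earlier batch had 5.7 ± 5.0% (n = 5) of the late-segment bins replicated and those of the later batch 34.5 ± 18.6% (n = 4), at mean Repliscores of 48.5 and 62. The part of Repliscore and batch in the gap between stages was not tested on these segments.

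The distance between an early segment and the next late one, over 18 such neighbours, ran from 0.24 to 4.32 Mb. From the end of the early segment at 6720000 to the start of the late segment at 6960001, a gap of 0.24 Mb, the 8-cell level fell from 94.7% to 2.4%. The next shortest gaps, of 0.32 Mb, separated early and late segments at 33840001, at 47120001 and at 89600001, where the 8-cell levels went from 89% to 3.3%, from 90.3% to 3.6% and from 93.4% to 3.3%. The widest, of 3.68 and 4.32 Mb, lay before the late segments at 66320001 and 28240001.

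In cells under a Repliscore of 30, which the segment rule did not use, the early segments were already far ahead at the 8-cell stage. The 6 cells of 4 embryos had between 24.2% and 39.8% of chromosome 11 replicated, a lead over their autosomes of 15.1 ± 3.0 points (n = 4 embryos). With segments defined from mid-S cells of the other embryos, the early segments were replicated to 65.2% and the rest of the chromosome to 3.5%. The difference per embryo was 67.5 points in embryo 3, 58.6 in embryo 8, 69.9 in embryo 10 and 50.8 in embryo 11. In each of the 4 embryos the early segments were far above the rest. The 4-cell stage had 1 such cell, in embryo 8, with a Repliscore of 12.6 and 0.47% of chromosome 11 replicated, 12.2 points below its autosomes. In it the early segments were at 0.56% and the rest at 0.39%. This cell was 56% replicated on chromosome 2, 60.3% on chromosome 6 and 75.4% on chromosome 10. Every other autosome was at 3.7% or less.

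Over all 5 embryos, early segments exceeded the rest by 49.4 ± 28.6 points (p = 0.0625, two-sided exact sign-flip test, higher in 5 of 5). That is the smallest p that 5 embryos allow, and it was 0.117 adjusted over the 6 tests. In the 4-cell embryo, whose cell had chromosome 11 in 1 state, the excess was only 0.17 points. Without it, the excess was 61.7 points over the 4 8-cell embryos (exact sign-flip p = 0.125, the smallest that 4 embryos allow). The lead of the whole chromosome over the autosomes was 9.65 points over the 5 embryos (p = 0.125, exact sign-flip test, p = 0.15 adjusted). Its direction is carried by the 8-cell embryos, since the 4-cell cell lay below 0.

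The late segments were nearly untouched in these cells. In 5 of the 6 8-cell cells, 0% of the late-segment bins were replicated, and in the sixth 1.3%. By segment, 17 of 18 were at 0%. Of the 1486 called bins, 227 (15.3%) were replicated in all 6 cells. Of these 227, 226 lay in early segments and 0 in late segments. Over all autosomes 4.51% of the bins were replicated in all 6 cells, and chromosome 11 held 16.8% of them, while it holds 4.97% of the autosomal bins. A further 759 bins (51.1%) were replicated in none of the 6. The share of such bins over all autosomes is not given, so this count does not set chromosome 11 apart.

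**Figure D3:**
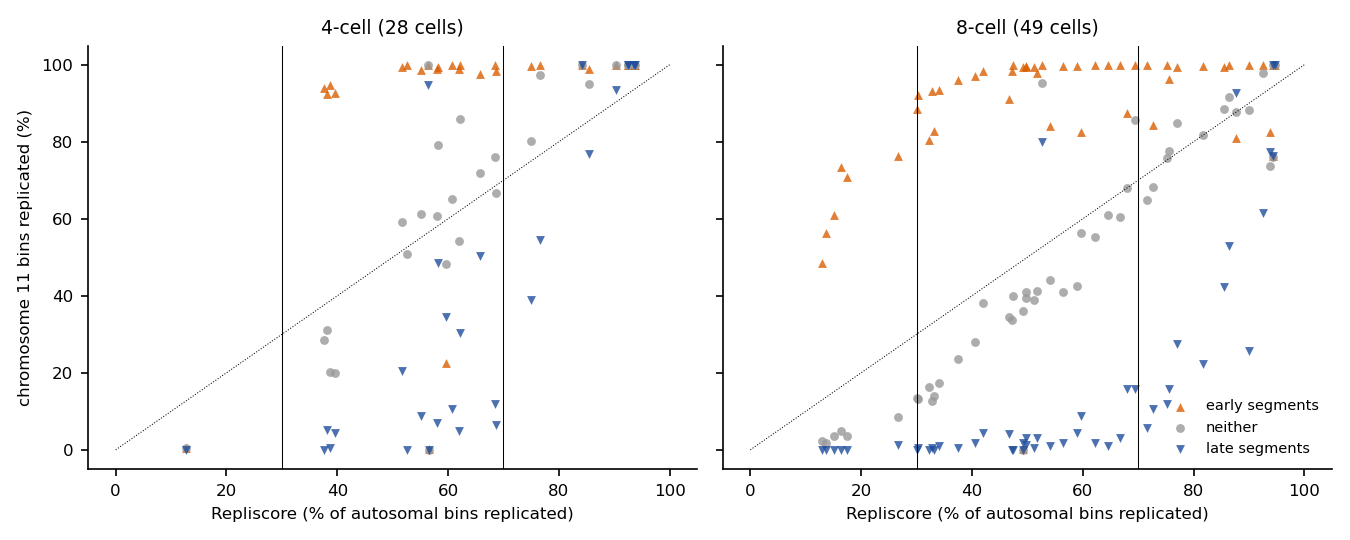
Percentage of chromosome 11 bins replicated in each cell (vertical axis) against its Repliscore (horizontal axis), for early segments, late segments and the bins in neither, in 28 4-cell and 49 8-cell cells. The dotted line marks equality and the vertical lines Repliscores of 30 and 70. At the 8-cell stage the early segments rise from 48.6% at a Repliscore of 12.9, and the late segments lie under 5% in most cells up to 60; the segments were defined from the mid-S cells shown here.

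The bins replicated in all 6 of these cells formed 15 runs of at least 5 bins, 137 bins together, and mark where the chromosome was copied first. The longest, chr11:100080001-101600000 (19 bins), lies in the windows of Stat3, Stat5a, Stat5b and Brca1. RefSeq lists 33 protein-coding genes between Stat5b and Brca1 alone. The second, chr11:74720001-76000000, had 16 bins. The third, chr11:69520001-70640000 (14 bins), starts in the window of Polr2a, and the fourth was chr11:78240001-79200000 (12 bins), which ends in the window of Nf1. Further runs were chr11:86560001-87360000 (10 bins), chr11:93760001-94480000 (9 bins), chr11:4080001-4720000 (8 bins) in the window of Lif and chr11:79680001-80320000 (8 bins).

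Early segments were not all equally advanced in these cells. The Ace segment chr11:105520001-107600000 stood at 85.1% and that of Polr2a at 84.8%, whereas the segment chr11:29120001-30400000 stood at 25.8% and that of the alpha globin genes, chr11:32080001-33520000, at 27.8%. In mid-S the globin segment had nonetheless reached 89.2 ± 18% in 4-cell and 89.3 ± 12% in 8-cell embryos. Early bins proximal to 50 Mb were at 48 ± 12.8% (n = 4 embryos), those from 50 to 66 Mb at 60.9 ± 10.3% and those distal to 66 Mb at 72.7 ± 11.2%. The proximal level was below the distal level in 6 of 6 cells.

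At the other end of S phase, the late segments were less replicated than the rest. With segments taken from mid-S cells of the other embryos, cells over a Repliscore of 70 had 61% of the late-segment bins and 93.3% of the other bins replicated, a difference of -32.3 ± 29.5 points (n = 13 embryos). It was below 0 in 10 embryos and at 0 in 3, in which both classes were fully replicated (p = 0.00195, two-sided exact sign-flip test, p = 0.0117 adjusted over the 6 tests). The difference was -17.5 ± 21.6 points in 5 4-cell embryos and -41.5 ± 31.1 points in 8 8-cell embryos. Of the cells over 70, 5 of 9 4-cell and 2 of 15 8-cell cells had chromosome 11 fully replicated. By segment, over the 8 8-cell embryos, the Tenm2 segment had the lowest mean, at 36.8 ± 36.8%, and chr11:66320001-66720000 the highest, at 74.6 ± 30.3%. Meis1's segment was at 42.8 ± 34.9% and that between Kcnj2 and Sox9 at 44.5 ± 42.4%.

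Some cells over 70 did not have this order. In 8-cell embryo 9, the cells at Repliscores of 93.7 and 94.3 had 78.4% and 76.2% of chromosome 11 replicated, 15.3 and 18.1 points below their autosomes. Their early segments stood at 82.4% and 76.4% and their late segments at 77.3% and 76.4%, while the third cell of that embryo over 70, at 94.8, was fully replicated. In 8-cell embryo 3, the cell at 87.7 had 81.1% of its early and 92.6% of its late segments replicated, with 158.8 changes of state per 1000 called bins, the highest of all cells.

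The fixed list of 86 gene loci on the chromosome was read at 1-Mb resolution, from the general mm9 map and not from an annotation of that build. Loci in the same window share their value. Over all 119 windows of chromosome 11, 51 were at or above 80% and 22 at or below 20% at the 8-cell stage, with a median of 71.7%, and the 4-cell median was 73.8%. The window of Lif was at 94.4 ± 16.7% in 4-cell and 95.6 ± 9.4% in 8-cell embryos and at 95.2% in 8-cell cells under 30. Polr2a and Trp53 share a window at 81.9 ± 34.9%, 94.1 ± 10.7% and 93.8%. The window of Stat3 was at 77.4 ± 43.9%, 96.7 ± 7.8% and 96.2%.

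Among the long genes described here, Tenm2 and the genes Gabra6 and Gabrb2 had the lowest 8-cell values. The list's 8 loci covered 7 windows, of which 0 were at or above 80% and 3 at or below 20% at the 8-cell stage. The window of Tenm2 was at 11.3 ± 17% in 4-cell and 8.3 ± 16.3% in 8-cell embryos, and at 0% in 8-cell cells under 30. That of Gabra6 and Gabrb2 was at 24.4 ± 18.7%, 8.1 ± 13.2% and 5.8%. Ebf1 shares its window with Il12b, an interleukin subunit gene, at 41 ± 31.1%, 24 ± 14.8% and 3.8%. Slit3, an axon guidance gene, was less late, at 75.5 ± 22%, 53.2 ± 15.8% and 13.5%.

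Immune genes were split by position. Il4, Il5 and Il13 lay at 87.0 ± 21.7% in 4-cell and 86.6 ± 22.3% in 8-cell embryos, and already at 84.4% in 8-cell cells under 30. Csf2 and Il3, which encode blood cell growth factors, were at 86.3 ± 21.2%, 86.5 ± 19.7% and 60.6%. The chemokine gene Ccl2 was at 39.6 ± 36.2%, 10.4 ± 17.5% and 0%, in the window that also holds much of the long ion channel gene Asic2, chosen after the values were seen. Ccl5 was at 79.2 ± 34.5%, 96.1 ± 8.6% and 43.8%.

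Clusters of tissue-specific genes took different places. The Hoxb cluster of body-axis genes, 10 listed genes in chr11:96000001-97000000, was at 82.1 ± 34.8% in 4-cell and 82.7 ± 16.5% in 8-cell embryos and at 46.2% in 8-cell cells under 30. The list's 6 keratin and keratin-associated loci covered 3 windows, of which 1 was at or above 80% at the 8-cell stage. The highest values among them were 77.4% in 4-cell and 96.7% in 8-cell embryos and 96.2% in 8-cell cells under 30. The keratin genes Krt10, Krt12 and Krt20 and the keratin-associated Krtap3-1 lie in chr11:99000001-100000000. That window was at 55.6 ± 32.5%, 48.2 ± 23.4% and 7.3%, between the window of Erbb2, Rara and Top2a at 80.8 ± 34.4%, 96.3 ± 8.3% and 71.2% and that of Stat3. The skeletal muscle myosin genes Myh1, Myh2, Myh3, Myh4 and Myh8 were read over 2 windows at 37.8 ± 24.3%, 32.2 ± 16.7% and 3.0%. Olfactory receptor clusters ranged from 58.6 ± 32.1% and 36.6 ± 18.4% at Olfr376 to 84.4 ± 21.9% and 84.7 ± 19% at Olfr1378. The imprinted genes Grb10 and Zrsr1 were at 31.9 ± 34.5% and 34.4 ± 20.4%, and at 90.2 ± 16.9% and 90.5 ± 10.1%.

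Gene density ran along with the map. Between 25 marker genes, the RefSeq gene order gave the number of protein-coding genes in each of 24 intervals, from 0.33 genes per window between Kcnj2 and Sox9 to 31.25 between Top2a and Brca1. The interval from Kcnj2 to Sox9 was at 26.7% in 4-cell, 15% in 8-cell mid-S and 0% in 8-cell cells under 30, and that from Top2a to Brca1 at 73.4%, 84.7% and 61.3%. The rank correlation of genes per window with the replicated percentage was 0.88 for 4-cell and 0.92 for 8-cell embryos. It is given as a description over 24 intervals of unequal length, each of which shares its end window with the next. Their ends were marker genes in part chosen with the values known.

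**Figure D4:**
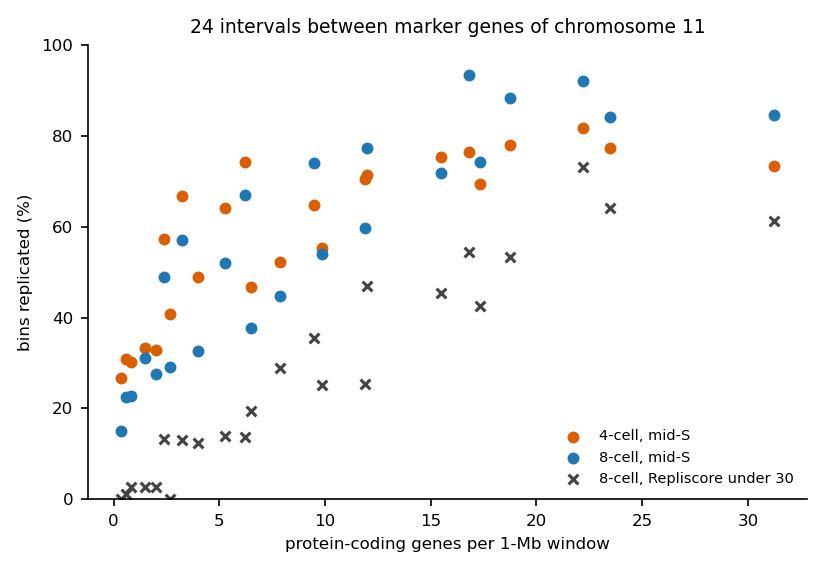
Replicated percentage (vertical axis) against protein-coding genes per 1-Mb window (horizontal axis) for 24 intervals between marker genes along chromosome 11. Circles are mid-S means of 4-cell and 8-cell embryos, crosses 8-cell cells under a Repliscore of 30. The lowest point, from Kcnj2 to Sox9, has 0.33 genes per window and 26.7%, 15% and 0% replicated.

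The stages were then compared window by window. A linear model over 2536 windows of the genome, with the embryo's autosomal percentage as a covariate (limma, Benjamini-Hochberg adjustment), called 12 windows, 0.473% of those tested. On chromosome 11, 0 of 119 windows passed, and 4 had an unadjusted p under 0.05, which is 3.36% of them against 15.5% over the genome. In a simulation with the same embryos and windows, differences were planted in windows drawn over the whole genome, 100 of each size. There, 79% of the differences of 40 points and 29% of those of 20 points were called. The simulated noise was normal, independent between windows and not held within the range of a percentage. Real neighbouring windows shared states in long runs, so these rates are only a rough guide. The planted windows far outnumbered the 12 called in the real data, which makes the adjusted threshold easier to pass. Rates for chromosome 11 alone were not computed. Stage differences of these sizes could therefore have been missed. The unadjusted share on chromosome 11 depended on cells that held a run of at least 40 Mb in a single state on any autosome. Without them, 20 of 119 windows (16.8%) had a limma unadjusted p under 0.05, against 484 of 2533 over the genome. After adjustment, 60 of the 2533 windows passed over the genome and 2 of the 119 on chromosome 11, both lower at the 8-cell stage. They were chr11:62000001-63000000, at 89% in 4-cell and 69.6% in 8-cell embryos (limma adjusted p = 0.0483), and chr11:89000001-90000000, at 45.5% and 26.9% (limma adjusted p = 0.0362). With all cells their limma adjusted p was 0.83 and 0.6.

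The smallest adjusted p on the chromosome, 0.157, was that of chr11:48000001-49000000, one of the windows of the olfactory receptor gene Olfr1396. It had a lowest value of 50%, a median of 69.2% and a highest of 100% in 4-cell embryos, and 25.6%, 46.9% and 65.4% in 8-cell embryos. The groups overlapped, and the fitted difference was -24.2 ± 7.5 points (SE), not past the threshold. The next windows with lower 8-cell values were chr11:9000001-10000000 at -26.4 ± 12.4 points (limma adjusted p = 0.313) and chr11:35000001-36000000, which is that of Slit3, at -17.1 ± 8.1 points (limma adjusted p = 0.316). In the other direction, chr11:105000001-106000000, the window of Ace, differed by 25.3 ± 11.2 points (limma adjusted p = 0.277). The windows chr11:85000001-86000000 and chr11:108000001-109000000 differed by 20.7 ± 11.7 and 20.1 ± 11.3 points (both limma adjusted p = 0.398). At the ends of the chromosome, chr11:3000001-4000000 and chr11:121000001-122000000 differed by 7.3 ± 6.9 and 13.9 ± 10.9 points (limma adjusted p = 0.64 and 0.554).

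Over all bins, the profiles of the stages were alike in shape, with a Pearson correlation of 0.91 and a Spearman correlation of 0.81 across 1486 neighbouring bins, which are not independent. Of 630 bins early at the 4-cell stage 91.6% were early at the 8-cell stage, and of 752 early at the 8-cell stage 76.7% were early at the 4-cell stage. Late bins numbered 147 in 4-cell and 398 in 8-cell embryos, and the 140 in common were 95.2% and 35.2% of them. Not a single bin (0) was early at 1 stage and late at the other. Without the cells in 1 state, the early bins numbered 729 and 774 and the late bins 200 and 396.

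The number of changes of state along the chromosome and the agreement between cells were also compared. Mid-S cells had 37.5 ± 18.7 changes per 1000 called bins (n = 9) in 4-cell and 53 ± 14 (n = 10) in 8-cell embryos. Embryo values ran from 2.7 through a median of 37.3 to 65.3 and from 39.3 through 50.3 to 76.2. They overlapped, and the difference of 15.5 changes did not pass (p = 0.0545, two-sided exact permutation test, p = 0.117 adjusted). The batch moved with this value: the 5 4-cell embryos of the earlier batch had 48.1 ± 14.5 changes and the 4 of the later batch 24.2 ± 15. Against the later batch alone the difference was 28.8 changes (exact permutation p = 0.004), and against the earlier batch 4.81 (exact permutation p = 0.544).

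**Figure D5:**
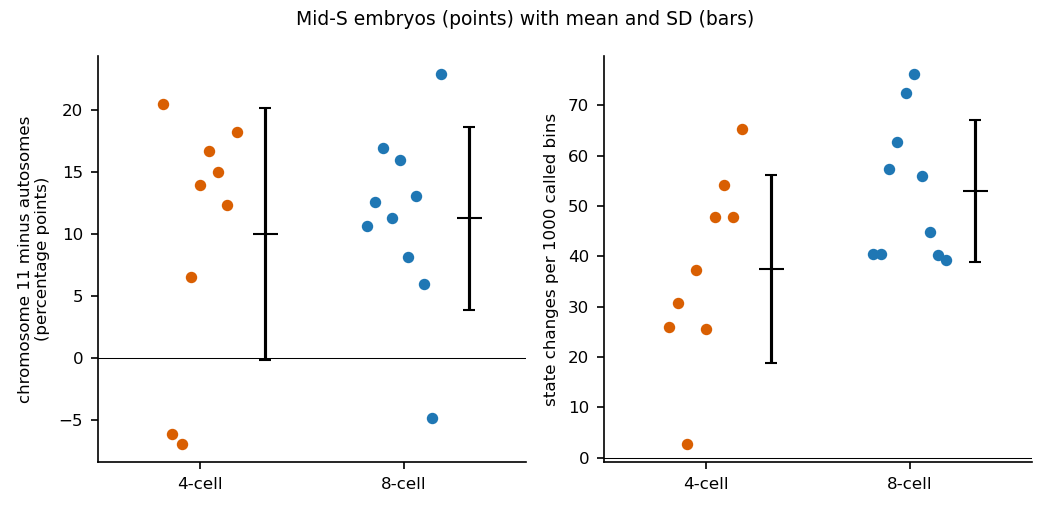
Values of the mid-S embryos (points) with mean and SD (bars) for 9 4-cell and 10 8-cell embryos. Left, lead of chromosome 11 over the same cell's autosomes in percentage points; right, changes of state per 1000 called bins. The stages overlap in both, and the lowest 4-cell point on the right, at 2.7 changes, is embryo 6.

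Agreement between cells of different embryos, measured by the phi coefficient on shared bins, averaged 0.36 over 138 pairs of 4-cell cells and 0.58 over 339 pairs of 8-cell cells. The difference of 0.22 did not pass either (p = 0.0778, two-sided exact permutation of embryo labels, p = 0.117 adjusted). By batch, the 4-cell mean was 0.62 over 37 pairs in the earlier and 0.14 over 22 pairs in the later. Taken against the 8-cell cells, the difference was 0.44 with the later batch (exact permutation p = 0.00899) and -0.0455 with the earlier batch (exact permutation p = 0.531). The later batch of 4-cell embryos includes embryos 3 and 6, whose cells were described above.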

How the data were processed

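The deposited tables hold, per 80-kb bin and cell, the authors' binary state: replicated, not replicated or no call. Bins are on mm9 (build per the submitters' processing notes). Aligner and caller: not given in the sources used here. A deposited metadata table gives each cell's Repliscore in percent, a MAD score (not used for any value), its embryo and its batch. The replicated percent of called autosomal bins recomputed here matched the authors' Repliscore within 4.98e-09.

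All values are percentages of called bins per cell, averaged per embryo; 0 table columns lacked a sample. Autosomes include chromosome 11. Tests of single values were exact permutations of embryo labels or exact sign-flips over embryos, two-sided, with Benjamini-Hochberg adjustment over 6 tests. Windows of 1 Mb (bins assigned by start, 8 or more cells of each stage with 6 or more bins called) were fitted over chromosomes 1 to 19 and X with limma 3.58.1 in R 4.3.3 and tested on simulated data. Python 3.11.15, numpy 2.4.6, pandas 2.3.3 and scipy 1.17.1 were used. Cells in 1 state had at least 98% of chromosome 11 in either state. Cells with long blocks had a run of a single state of at least 40 Mb on any autosome.

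Named were 17 of the 18 late segments (1 is not reported here), the 10 longest early segments, the 3 windows of smallest p in each direction, both end windows and a fixed list of gene loci; the members and lists were chosen with earlier results of these data known. All 94 loci, 8 of them added after values were seen, were found in the RefSeq GRCm38.p6 table, which was used for names, gene order and promoter sequences; no window order disagreed with it. Alternatives changed the mid-S range, batch, cells left out, weights, thresholds, windows and each embryo. The embryo numbers do not pair embryos across stages.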

Additional observations from a re-analysis of the deposited data

Results flagged for a closer look

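Among 12 groups of embryo values examined, 2 held an embryo far from the others; by chance about 1 in 20 groups would. In mid-S 8-cell embryos, embryo 11 had 74.4% of the early-segment bins replicated, while the other 9 had between 88.5% and 99.9%. This embryo holds the cell with 0.21% of chromosome 11 replicated. Embryo 12 had 42.1% of the late-segment bins replicated, while the other 9 lay between 0.55% and 7.9%. It holds the cell at Repliscore 52.6 with 93.4% of chromosome 11 replicated and 1033 bins called.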

How the results depend on the processing

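The stage difference in the lead of chromosome 11 passed its test under none of the settings tried, and its sign changed. The difference was -2.98 points without cells with long blocks and -3.99 points with the 4-cell embryos of the earlier batch against all 8-cell embryos, which was chosen after seeing the data. It ran from -0.875 to 3.04 points when each of the 19 embryos was left out. The difference in changes of state was 19.2 per 1000 bins in mid-S cells from 40 to 60 (exact permutation p = 0.0203), 28.8 with only the later batch (exact permutation p = 0.004) and 14.6 without long blocks (exact permutation p = 0.0458), and ran from 11.1 to 18.9 over the embryos left out, 8 of which gave an exact permutation p under 0.05. The difference in agreement was 0.38 from 40 to 60, 0.44 in the later batch and 0.13 without long blocks (exact permutation p = 0.0293, 0.00899 and 0.0333), -0.0455 with the earlier batch, and 0.14 to 0.28 over the embryos left out. The late segments in cells over 70 stayed below the rest, from -35.4 to -29.0 points over 24 embryos left out; without long blocks the difference was -43.9 points in 3 embryos (exact sign-flip p = 0.5). The early segments in cells under 30 stayed above the rest, from 44.2 to 61.7 points over the embryos left out, and the lead there from 7.26 to 15.1 points. Early segments held 416 bins in the later batch alone and 263 bins with thresholds of 90% and 10%, with 684 to 736 over the embryos left out. Late segments held 103 bins in the later batch, 55 bins at 90% and 10% and 376 bins at 70% and 30%, with 200 to 266 over the embryos left out. The number of late segments was 7, 8 and, with at least 10 bins each, 9. Windows of chromosome 11 that differed between stages numbered 0 for every embryo left out. Without long blocks they numbered 2 of 119, against 60 of 2533 over the genome. The cause of these changes was not tested. No paired analysis was possible because embryos carry no number that is shared across stages. Read depth per bin is unknown, so its part in the uncalled bins cannot be given.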
